A study of Mus musculus with 47 samples.

Results

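Genes of fatty acid uptake and of its control by the peroxisome proliferator-activated receptors (PPARs) were followed across single fast-twitch muscle fibres that lacked Mybpc2 and fibres that had it. The 10 genes were taken by name from the 24421 genes counted in each fibre. The rule used no measured value, but the genes were chosen with earlier results of these data known. They were the uptake genes Cd36, Lpl and Fabp3, the activating enzyme gene Acsl1, the receptor genes Ppara and Ppard, the coactivator gene Ppargc1a, and the receptor targets Pdk4, Ucp3 and Angptl4. All 10 were found in the count data, and all 10 passed the filter on low counts.

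The C2KO group held 20 fibres and the WT group held 27, each fibre freed by collagenase from the EDL (extensor digitorum longus, a fast hindlimb muscle). The mice were 2 to 3 months old and of FVB/N background. C2KO mice carried a constitutive deletion of Mybpc2, the gene of fast myosin binding protein-C, in which a neomycin cassette replaced most of the exons. WT mice carried no engineered allele, and the labels name no treatment. The labels gave 2 C2KO and 3 WT mice but tied no fibre to a mouse, so fibres were summed by name or sequencing run into 2 C2KO pools (740 and 2445, 10 fibres each) and 3 WT pools (10, 10 and 7 fibres).

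Each fibre held 7648762 to 14606631 counted fragments, with a median of 9850881 in C2KO and 12606722 in WT fibres. Mybpc2 itself was at 2.61 to 47.6 CPM (counts scaled to a total of 1000000 in each fibre) in C2KO fibres, against 6563 to 11556 CPM in WT fibres, which matched every label. The labelled fast fibre type was borne out by Myh4, at 53672 to 84212 CPM in C2KO and 28821 to 78138 CPM in WT fibres, whereas of 6 genes of slow or oxidative fibres Myh7, Tnnt1, Tnni1 and Myl3 stayed under 1 CPM in all fibres. The other two were present: Myh2, the myosin of fast oxidative fibres, was at 58.5 to 191 CPM (median 103) in C2KO and 51.7 to 253 CPM (median 174) in WT fibres, and Atp2a2, the calcium pump of slow fibres, at 4.67 to 35.1 CPM in C2KO and 6.46 to 28.1 CPM in WT fibres. The part of Myh2 in the levels below was not tested. Run 0092, with 1 C2KO and 7 WT fibres, was the only sequencing run that held both genotypes, so run and genotype could hardly be told apart. Pool 740 held Y-linked fibres alone (fibres with counts of Y-linked genes) and pool 2445 Xist fibres alone (fibres with counts of Xist), whereas each WT pool mixed both kinds (15 Y-linked and 12 Xist fibres in all), so a WT pool held fibres of more than 1 mouse and 2 WT pools may share a mouse. The p-values therefore measured the spread between pools of fibres and not strictly that between mice.

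Long-chain fatty acids reach a muscle fibre from albumin or are freed from circulating triglyceride by lipoprotein lipase, enter through CD36, are carried in the cytosol by fatty acid binding protein and are activated to acyl-CoA by acyl-CoA synthetase. Fatty acids and their derivatives are ligands of the PPARs, nuclear receptors that bind DNA together with a retinoid X receptor at a direct repeat of a core hexamer spaced by a single base. In muscle, PPARs and the coactivator PGC-1α are known for turning on genes of fat oxidation during fasting and endurance exercise, among them Pdk4, Ucp3 and Angptl4.

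The proximal promoters were searched for such a repeat. Promoters of 300 bases (250 before and 50 after the start of the gene, RefSeq, GRCm38.p6) were at hand for 8 of the 10 genes, in 9 sequences because Acsl1 had 2 starts. They were searched on both strands for AGGTCA followed by any 1 base and a second AGGTCA, allowing up to 2 mismatches, and for the core hexamer AGGTCA without mismatch, which can overlap the repeat. The repeat was found in 2 of the 9 sequences, those of Cd36 and Ucp3, against 3.86% of 32851 promoters of all genes. The hexamer was found in the same 2 sequences, against 16.3% of all promoters. The Cd36 window lay inside the gene's span in the count annotation, at chr5:17835847-17836146 on the minus strand, and its repeat began 63 bases before the start on the opposite strand. The Ucp3 window lay at chr7:100472741-100473040 on the plus strand, and its repeat began 51 bases before the start. Both are printed because they held a match, and Fabp3 (chr4:130308488-130308787, plus strand) and Pdk4 (chr6:5496229-5496528, minus strand) because, of the members with both C2KO pools above all WT pools, they had the largest folds. Capitals mark the repeat with up to 2 mismatches and every exact hexamer on either strand, and Fabp3 and Pdk4 had none in this window.
Cd36: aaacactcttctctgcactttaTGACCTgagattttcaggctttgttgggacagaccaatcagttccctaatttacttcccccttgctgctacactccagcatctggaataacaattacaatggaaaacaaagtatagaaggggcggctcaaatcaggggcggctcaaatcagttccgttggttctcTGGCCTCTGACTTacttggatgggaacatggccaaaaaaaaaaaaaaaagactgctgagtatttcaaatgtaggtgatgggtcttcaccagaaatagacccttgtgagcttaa
Ucp3: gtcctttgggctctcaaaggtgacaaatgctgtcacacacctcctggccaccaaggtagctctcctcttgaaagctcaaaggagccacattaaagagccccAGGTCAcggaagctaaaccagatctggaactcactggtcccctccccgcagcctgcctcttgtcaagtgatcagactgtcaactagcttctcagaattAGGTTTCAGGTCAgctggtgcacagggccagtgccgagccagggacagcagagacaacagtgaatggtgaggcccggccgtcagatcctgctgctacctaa
Fabp3: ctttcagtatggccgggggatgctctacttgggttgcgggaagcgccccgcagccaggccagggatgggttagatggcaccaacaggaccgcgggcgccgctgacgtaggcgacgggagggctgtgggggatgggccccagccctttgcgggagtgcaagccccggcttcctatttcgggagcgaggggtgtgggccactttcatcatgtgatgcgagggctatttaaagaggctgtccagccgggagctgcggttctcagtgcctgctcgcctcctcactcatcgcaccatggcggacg
Pdk4: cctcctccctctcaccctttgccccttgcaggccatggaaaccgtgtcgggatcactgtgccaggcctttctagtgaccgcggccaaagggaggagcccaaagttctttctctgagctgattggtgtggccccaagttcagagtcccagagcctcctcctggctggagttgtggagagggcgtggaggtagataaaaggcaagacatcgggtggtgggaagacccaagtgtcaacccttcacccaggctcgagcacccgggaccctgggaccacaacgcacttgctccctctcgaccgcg
A match is a description of letters and says nothing about binding, which was not measured.

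Across the 10 genes, no member was called between C2KO and WT pools by edgeR's quasi-likelihood test (adjusted p under 0.05 and a fold above 1.5), against 0.0233% of the 12863 genes tested that were called higher and 0.0233% called lower. DESeq2 called 1 member on the same pools (Fabp3) and limma-voom none. In edgeR Fabp3 was the only member with an unadjusted p under 0.05, a threshold that 6.20% of all genes passed on the higher side and 4.13% on the lower side. The log2 fold change was positive for 8 of the 10 members, against 49.9% of all genes, and negative for Ppara and Angptl4. The median log2 fold change was 0.29 over the 10 members and -0.00038 over all genes tested. Both C2KO pools lay above all 3 WT pools for Cd36, Fabp3, Acsl1 and Pdk4, 4 of 10 members, against 13.1% of all genes. Both C2KO pools lay below all WT pools for none of the members, against 14.5% of all genes. The members were chosen with earlier results of these data known, and several are targets of the same receptors, so these shares are descriptions and carry no test.

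**Figure D1:**
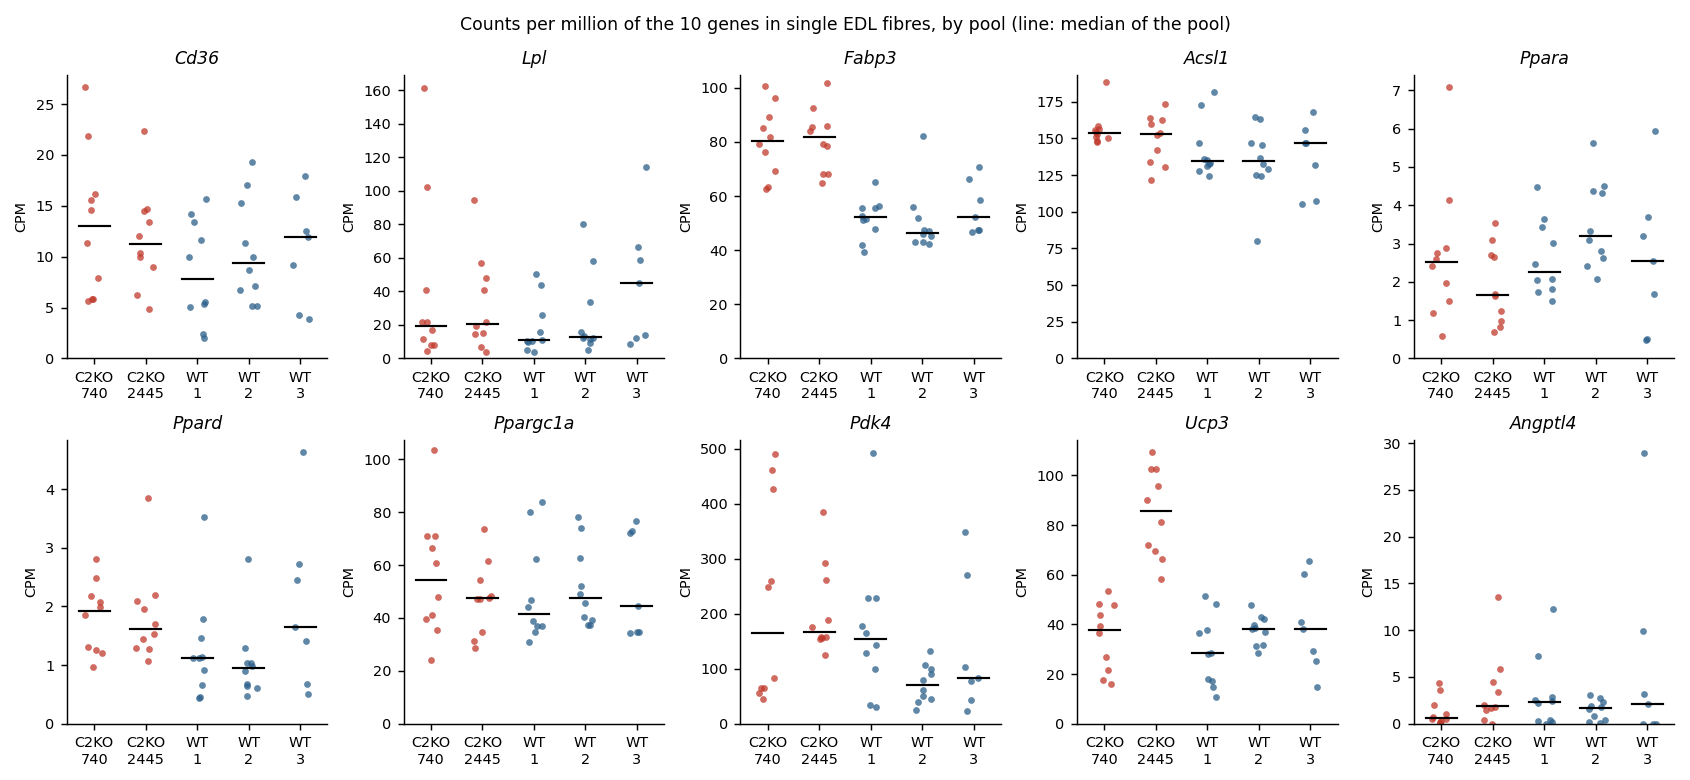
CPM of the 10 genes (y axes, linear from 0) in each single fibre, with C2KO pools 740 and 2445 in red and WT pools 1, 2 and 3 in blue; the line is the median of each pool. Fabp3 was at 62.6 to 102 CPM in C2KO fibres and 39.2 to 82.1 CPM in WT fibres, and Ucp3 at 58.2 to 109 CPM in pool 2445 and 15.9 to 53.3 CPM in pool 740.

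Cd36 encodes the membrane receptor that takes up long-chain fatty acids (chr5:17781690-17888959, minus strand, mm10). Its fibres ran from 4.87 to 26.7 CPM with a median of 11.7 CPM in C2KO, against 1.98 to 19.3 CPM with a median of 10.00 CPM in WT. The groups overlapped widely, with 12 of 20 C2KO fibres above the WT median. In the pools, Cd36 was at 12.5 and 12.4 normalised CPM in C2KO pools 740 and 2445, against 8.69, 10.6 and 10.7 in WT pools 1, 2 and 3. The C2KO pools stood 1.24-fold above WT (log2 fold change 0.32, SE 0.13, edgeR adjusted p 0.49).

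The Cd36 level also went with the kind of WT fibre, in medians that were not tested. In every WT pool its median was higher in fibres with Xist counts than in fibres with Y-linked counts, at 12.5 against 3.72 CPM in pool 1, at 15.3 against 8.73 CPM in pool 2 and at 15.9 against 6.70 CPM in pool 3. In the C2KO group the Xist pool 2445 had a median of 11.2 CPM and the Y-linked pool 740 one of 13.0 CPM, so the order there was the other way round. Set against WT fibres of its own kind, pool 740 gave a log2 value of 0.86 (edgeR adjusted p 0.55) and pool 2445 one of -0.11 (adjusted p 0.96). The difference between these differences was -0.94 (SE 0.59, edgeR adjusted p 0.77), in a test that called 0.0222% of 13507 genes. With 1 C2KO pool of each kind, the spread in these 3 fits came from the WT pools alone, and the C2KO pools were assumed to vary like them.

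Lpl encodes lipoprotein lipase, which cuts fatty acids from circulating triglyceride (chr8:68880555-68906932, plus strand). It was among the most variable members, at 3.68 to 161 CPM with a median of 20.5 CPM in C2KO fibres, against 3.95 to 114 CPM with a median of 13.5 CPM in WT fibres. The spread between fibres of a genotype, 43.9-fold in C2KO and 29.0-fold in WT, was far wider than the gap between the medians. Pool levels were 36.5 and 33.8 normalised CPM in C2KO pools 740 and 2445, against 19.001, 25.05 and 44.4 in WT pools 1, 2 and 3. WT pool 3 was therefore above both C2KO pools, and the log2 fold change, 0.26 with an SE of 0.34 (edgeR adjusted p 0.83), was within the spread between pools. Without WT pool 1 it was 0.017, and without WT pool 3 it was 0.67.

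Lipoprotein lipase and CD36 are also abundant in fat and in capillaries, so markers of those cells were read in the same fibres. Of 6 adipocyte markers, 5 were at 0 in every C2KO fibre and 4 in every WT fibre, and their sum was 0 to 33.4 CPM in C2KO and 0 to 1.46 CPM in WT fibres with a median of 0 in both. Adipoq, which defines adipocytes, was at 0 in all 20 C2KO fibres and in 26 of 27 WT fibres. The sum of 12 endothelial markers was 0 to 101 CPM (median 1.03) in C2KO fibres and 0 to 5.23 CPM (median 0.878) in WT fibres. The highest Lpl and Cd36 levels, 161 and 26.7 CPM, stood in the same fibre of pool 740, where the endothelial sum was 1.96 CPM and the adipocyte sum 0. The second highest Lpl level, 114 CPM in a fibre of WT pool 3, stood beside sums of 0 for both lists. Another fibre of pool 740, with Lpl at 102 CPM and Cd36 at 21.8 CPM, had an endothelial sum of 100.4 CPM and a fibroblast sum of 4898 CPM. Without the 9 fibres high in markers of other cells (5 of pool 740, 1 of pool 2445 and 3 WT), the log2 fold change was 0.40 for Cd36 and 0.30 for Lpl, and with them 0.32 and 0.26. The part of other cells in the Lpl and Cd36 levels was not tested.

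Fabp3, the cytosolic fatty acid carrier of heart and muscle (chr4:130308778-130315463, plus strand), was the member whose fibres overlapped least between the genotypes. It was at 62.6 to 102 CPM with a median of 80.5 CPM in C2KO fibres, against 39.2 to 82.1 CPM with a median of 51.2 CPM in WT fibres. All 20 C2KO fibres lay above the WT median, which was so for 0.684% of all genes tested, and 9 of them lay above every WT fibre, as did at least 9 for 0.878% of all genes. The overlap rested on few WT fibres, since 23 of 27 WT fibres lay below the lowest C2KO fibre. In the pools Fabp3 was at 77.2 and 85.4 normalised CPM in C2KO pools 740 and 2445, against 51.9, 49.6 and 54.8 in WT pools 1, 2 and 3. The C2KO mean of 81.3 ± 5.76 (SD, n = 2) and the WT mean of 52.1 ± 2.60 (SD, n = 3) gave a log2 fold change of 0.64 (SE 0.096, 1.56-fold).

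This difference did not pass the edgeR test over all genes (adjusted p 0.21), but its call depended on the test. DESeq2 on the same 5 pools called it, with an adjusted p of 2.4e-07, in a run that called 1.03% of genes higher. With the 47 fibres as units, edgeR (adjusted p 2.4e-09) and limma-voom (adjusted p 6.3e-10) called it as well, but these count fibres of a mouse as independent and called 3.08% and 2.42% of genes higher. Across all alternatives its log2 fold change kept between 0.56 and 0.83. Within run 0092 the only C2KO fibre was at 96.2 CPM and the 7 WT fibres at 46.7 to 70.9 CPM, so C2KO was also higher there, with a single fibre. The medians of the C2KO pools were alike, at 80.5 CPM in the Y-linked pool 740 and 81.7 CPM in the Xist pool 2445, against 51.5 CPM in Y-linked and 47.8 CPM in Xist WT fibres. GENCODE lists a processed pseudogene, Fabp3-ps1 (chr10:86731987-86732388, minus strand), that has no row of its own in the counts, and reads shared with it could not be told apart.

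**Figure D2:**
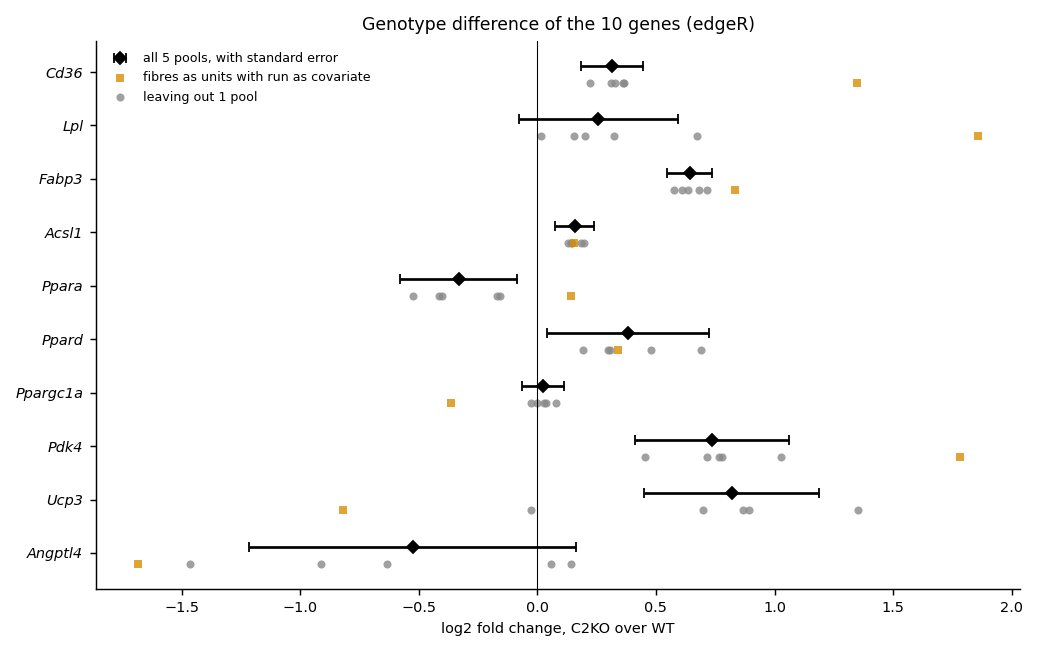
log2 fold change of C2KO over WT for each gene (x axis) from edgeR on all 5 pools (black diamond, with standard error), after leaving out 1 pool at a time (grey), and with fibres as units and run as covariate (orange). Fabp3 stayed between 0.57 and 0.83 over these points, whereas Ucp3 ran from -0.82 to 1.35.

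Acsl1 encodes the main long-chain acyl-CoA synthetase of muscle and fat (chr8:46471037-46536051, plus strand). Its fibres were at 122 to 188 CPM (median 153) in C2KO, against 80.1 to 182 CPM (median 135) in WT, and 17 of 20 C2KO fibres lay above the WT median. Pools were at 150 and 158 normalised CPM in C2KO pools 740 and 2445, against 143, 134 and 136 in WT pools 1, 2 and 3. The groups of pools did not overlap, but the gap was small at 1.12-fold (log2 fold change 0.16, SE 0.082, edgeR adjusted p 0.55). Acsl1 was also the least variable of the 10 in C2KO fibres, with 1.54-fold between the lowest and the highest.

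The receptors themselves were scarce. Ppara, the receptor best known from liver and oxidative muscle (chr15:85735564-85806851, plus strand), was at 0.586 to 7.08 CPM (median 2.19) in C2KO fibres, against 0.474 to 5.93 CPM (median 2.81) in WT fibres. Pools were at 2.59 and 2.01 normalised CPM in C2KO pools 740 and 2445, against 2.63, 3.49 and 2.55 in WT pools 1, 2 and 3, so pool 740 lay within the WT range. The log2 fold change was -0.33 (SE 0.25, edgeR adjusted p 0.67), and without the 9 fibres high in other cells' markers it was 0.010. These levels rested on 5 to 62 counts in C2KO fibres and 4 to 71 counts in WT fibres.

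Ppard, the receptor that prevails in skeletal muscle and responds to endurance training (chr17:28232754-28301469, plus strand), was at 0.965 to 3.86 CPM (median 1.78) in C2KO fibres, against 0.445 to 4.63 CPM (median 1.04) in WT fibres. Although 19 of 20 C2KO fibres lay above the WT median, the highest fibre of all was WT. Pools were at 1.72 and 1.94 normalised CPM in C2KO pools 740 and 2445, against 1.25, 1.02 and 1.97 in WT pools 1, 2 and 3, where pool 3 was as high as the C2KO pools. The log2 fold change was 0.38 (SE 0.34, edgeR adjusted p 0.73). Without WT pool 2 it was 0.19 and without WT pool 3 it was 0.69. Only limma-voom on fibres called it (0.69, adjusted p 0.022).

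Ppargc1a, the gene of the coactivator PGC-1α (chr5:51454249-51553921, minus strand), was the most even of the 10 between genotypes. It was at 23.97 to 103 CPM (median 47.8) in C2KO fibres, against 30.8 to 84.0 CPM (median 44.4) in WT fibres. Pools were at 53.6 and 50.0 normalised CPM in C2KO pools 740 and 2445, against 49.5, 51.4 and 51.9 in WT pools 1, 2 and 3. The log2 fold change was 0.02 (SE 0.089, edgeR adjusted p 0.95). Within WT pools 2 and 3, as for Cd36, fibres with Xist counts had higher medians than fibres with Y-linked counts, at 74.1 against 40.2 CPM and at 72.2 against 39.6 CPM, whereas in pool 1 both kinds were close, at 41.4 against 41.9 CPM.

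Pdk4 encodes the kinase that shuts the pyruvate dehydrogenase complex and so spares glucose (chr6:5483351-5496278, minus strand). It was at 45.4 to 490.0 CPM with a median of 167 CPM in C2KO fibres, against 23.97 to 493.2 CPM with a median of 99.3 CPM in WT fibres. Both groups spanned nearly the whole range, and 15 of 20 C2KO fibres lay above the WT median. Pool levels were 208 and 216 normalised CPM in C2KO pools 740 and 2445, against 174, 73.0 and 135 in WT pools 1, 2 and 3. The C2KO pools were close to each other and above the widely spread WT pools, by 1.66-fold on average (log2 fold change 0.74, SE 0.33, edgeR adjusted p 0.50). Without WT pool 2, the lowest, it was 0.46, and without WT pool 1, the highest, it was 1.03, both short of the threshold. Within the C2KO pools the fibres were unlike: pool 740 ran from 45.4 to 490.0 CPM, and pool 2445 from 125 to 385 CPM. In every WT pool the Pdk4 median was higher in Y-linked than in Xist fibres, with 3 to 7 fibres of a kind in each pool. It was 203 against 122 CPM in pool 1, 90.7 against 38.7 CPM in pool 2 and 92.5 against 43.8 CPM in pool 3. In fibres summed by kind the order held in pools 1 and 2. It turned in pool 3, at 131 normalised CPM in Y-linked and 140 in Xist fibres. The highest fibres of WT pools 1 and 3, at 493.2 and 348 CPM, were Xist fibres. The C2KO medians were 166 CPM in the Y-linked pool 740 and 167 CPM in the Xist pool 2445. The part of the kind of fibre in the Pdk4 levels was not tested.

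Ucp3 encodes the uncoupling protein of the inner mitochondrial membrane of skeletal muscle (chr7:100472991-100486432, plus strand), and had the largest log2 fold change of the 10. It was at 15.9 to 109 CPM (median 55.7) in C2KO fibres, against 10.7 to 65.7 CPM (median 36.8) in WT fibres. The whole gap lay in one C2KO pool. Pool 2445 was at 58.2 to 109 CPM and pool 740 at 15.9 to 53.3 CPM, without overlap, which held in this direction for 0.140% of all genes tested. Pools were at 34.3 and 89.4 normalised CPM in C2KO pools 740 and 2445, against 29.3, 37.3 and 38.6 in WT pools 1, 2 and 3, so pool 740 lay among the WT pools. The log2 fold change, 0.82 with an SE of 0.37 (edgeR adjusted p 0.51), became -0.026 without pool 2445 and 1.35 (adjusted p 0.063) without pool 740, each with a lone C2KO pool assumed to vary like WT pools.

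The kind of fibre did not give the same split in WT. Ucp3 had a median of 28.9 CPM in WT fibres with Xist counts and 37.97 CPM in WT fibres with Y-linked counts, against 85.8 CPM in the Xist pool 2445 and 37.9 CPM in the Y-linked pool 740. Set against WT pools of its own kind, pool 2445 gave a log2 value of 1.35 (edgeR adjusted p 0.43) and pool 740 one of -0.11 (adjusted p 0.87). The difference between them, 1.49 with an SE of 0.38, missed the threshold (edgeR adjusted p 0.23), again with the spread taken from WT pools alone. Pool 2445 came wholly from a single run, which also gave 6 fibres of pool 740, and mouse, kind of fibre and pool cannot be told apart with 1 C2KO pool of each kind. With fibres as units edgeR called Ucp3 (adjusted p 0.0029). With run as covariate as well the value was -0.82. That value rests on the only C2KO fibre of run 0092, a fibre of pool 740 at 21.4 CPM, and on no fibre of pool 2445.

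**Figure D3:**
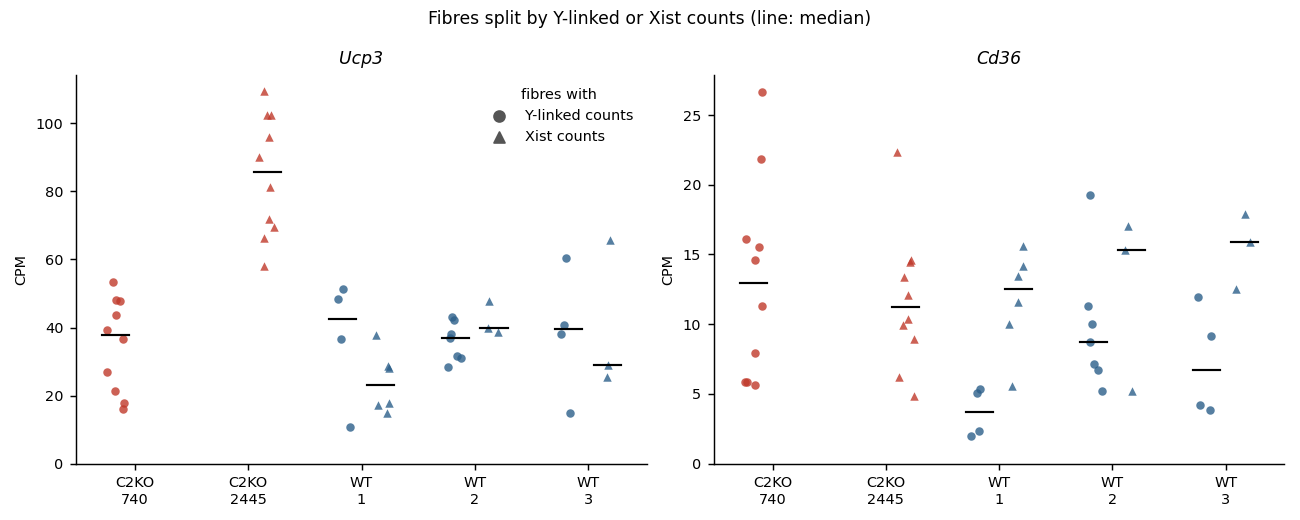
CPM of Ucp3 and Cd36 (y axes, linear from 0) by pool, with fibres that had Y-linked counts as circles and fibres that had Xist counts as triangles; C2KO in red, WT in blue, lines at medians. Every fibre of C2KO pool 2445 had more Ucp3 than every fibre of pool 740, and in each WT pool the Cd36 median was higher in fibres with Xist counts.

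Angptl4 encodes a secreted inhibitor of lipoprotein lipase that PPARs turn on in fasting (chr17:33774900-33781575, minus strand). It was at 0 to 13.6 CPM (median 1.58) in C2KO fibres, against 0 to 28.9 CPM (median 1.85) in WT fibres. No count was found in 1 C2KO and 4 WT fibres, which allows up to 0.231 to 0.383 CPM in these fibres (3 counts, counting error only). Pool levels, at 1.29 and 3.71 normalised CPM in C2KO pools 740 and 2445, against 3.10, 1.44 and 6.35 in WT pools 1, 2 and 3, were carried by few fibres. In WT pool 3 a single fibre was at 28.9 CPM and the next at 9.91 CPM. The log2 fold change, -0.53 with an SE of 0.69 (edgeR adjusted p 0.83), was 0.14 without that pool, 0.058 without C2KO pool 740 and -1.46 without C2KO pool 2445.

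Levels of different genes were compared per kilobase of exon. In WT fibres the order of the medians was Fabp3 (80.02 CPM per kilobase), Acsl1 (33.1), Pdk4 (28.7), Ucp3 (15.04), Ppargc1a (6.83), Lpl (3.33), Cd36 (2.55), Angptl4 (0.971), Ppara (0.373) and Ppard (0.324). In C2KO fibres the medians were 126 CPM per kilobase for Fabp3, 48.4 for Pdk4, 37.5 for Acsl1 and 22.8 for Ucp3, followed by 7.37 for Ppargc1a, 5.07 for Lpl and 2.98 for Cd36. Fabp3 stood above Acsl1 in all 20 C2KO and all 27 WT fibres, the only neighbouring pair with the same order in every fibre. Acsl1 stood above Pdk4 in 5 of 20 C2KO fibres and 18 of 27 WT fibres, so these neighbours were not separated beyond the spread of Pdk4. Ppara stood above Ppard in 2 of 20 C2KO fibres and 16 of 27 WT fibres, an order that was not tested.

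**Figure D4:**
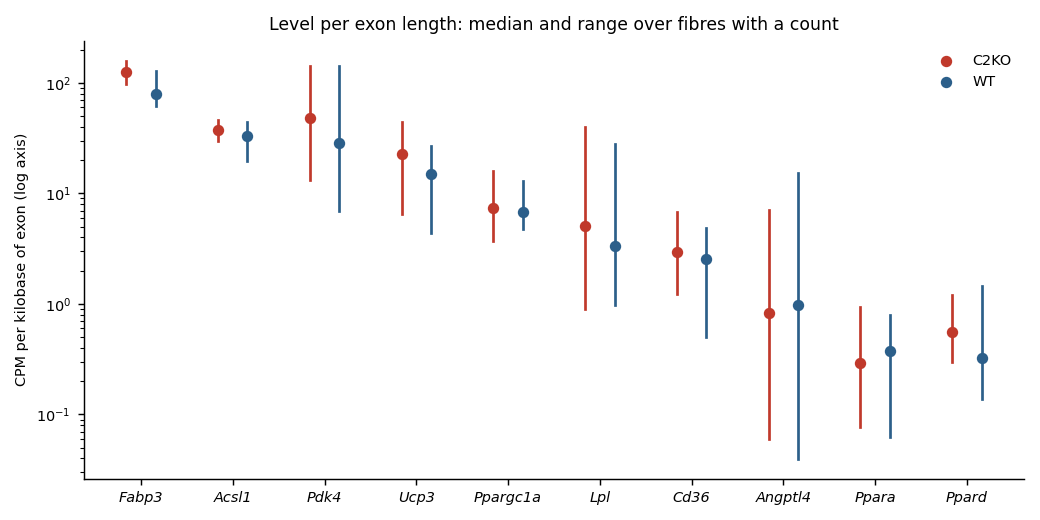
Median level per kilobase of exon over all fibres of a genotype (points; log axis) and the range over fibres with at least 1 count (lines), C2KO in red left of WT in blue. The carrier gene Fabp3 was highest in both, and the receptors Ppara and Ppard stood below 1 CPM per kilobase at their medians.

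Across fibres of 1 genotype the members did not move as a single group. Pdk4 and Angptl4 varied together, with a Spearman rho of 0.66 over 20 C2KO fibres and 0.66 over 27 WT fibres, and between 0.41 and 0.82 in the 5 pools. Ppargc1a ran against both, with a negative rho in all 5 pools for each pair. Its rho with Pdk4 was -0.65 in C2KO and -0.57 in WT fibres, and between -0.71 and -0.21 in the 5 pools. With Angptl4 the rho was -0.85 in C2KO and -0.39 in WT fibres, and between -0.84 and -0.03 in the 5 pools. This pair was weak in WT pools 2 and 3, at -0.03 and -0.15. Among the uptake genes, Cd36 and Lpl had a rho of 0.69 in C2KO and 0.42 in WT fibres (positive in 4 of 5 pools), and Lpl and Fabp3 one of 0.60 in C2KO and 0.38 in WT fibres (positive in 5 of 5 pools). The remaining pair, Cd36 and Fabp3, had a rho of 0.51 in C2KO and -0.17 in WT fibres and was negative in 3 of 5 pools. Ucp3 had no such partner among the targets. Its rho to Pdk4 was -0.09 in C2KO and -0.41 in WT fibres, and between -0.66 (pool 740) and 0.27 (pool 2445) in the 5 pools. Its rho to Angptl4 was 0.24 in C2KO and -0.33 in WT fibres, and between -0.70 and 0.12 in the 5 pools. Fibres of a pool share mice, runs and library depth, so these values are descriptions without a test.

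**Figure D5:**
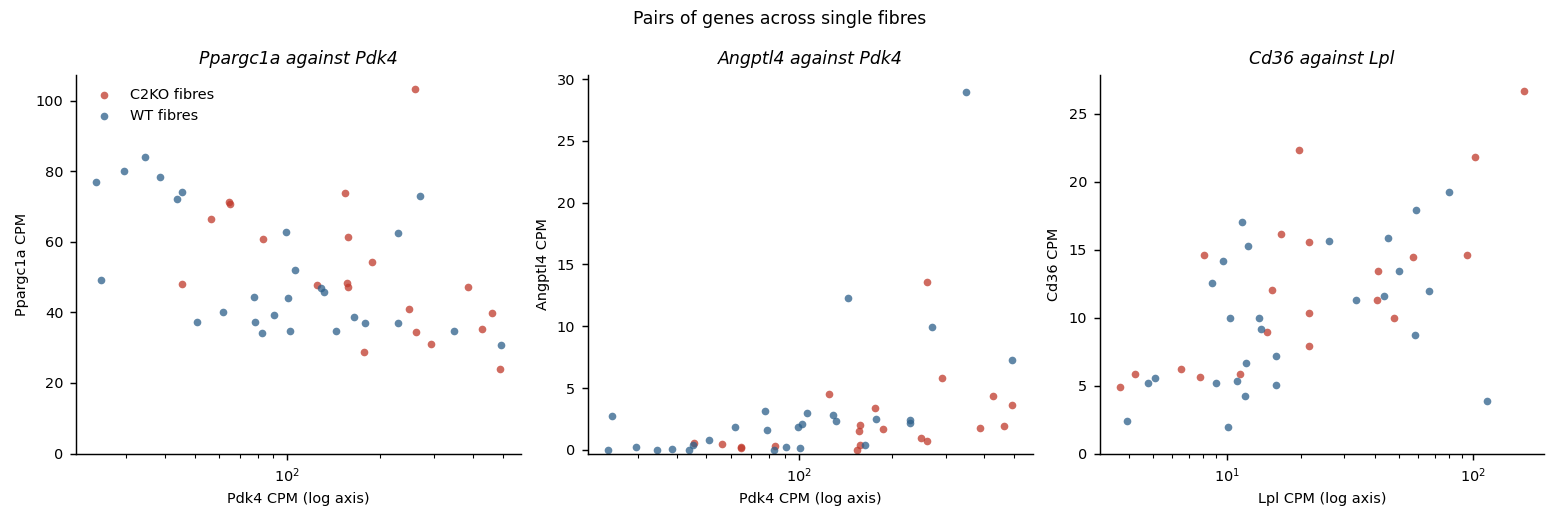
Ppargc1a and Angptl4 against Pdk4, and Cd36 against Lpl, in CPM, 1 point for each fibre (C2KO red, WT blue; x axes logarithmic, y axes linear). Ppargc1a was lower where Pdk4 was higher (rho -0.65 in C2KO and -0.57 in WT fibres), and Angptl4 was higher (0.66 in both).

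The genes whose levels followed each member most closely over the 27 WT fibres were listed for the 7 members with a WT median of at least 5 CPM, among about 6044 genes with a WT mean of at least 10 CPM. Because they were picked for their WT rho, lower values in C2KO fibres can follow from the choice alone and measure no difference between genotypes. Fibres of a pool are also not independent, so the values are descriptions without a test. Pdk4 was followed by Hbegf, a growth factor of the EGF family (rho 0.93), Errfi1, an inhibitor of EGF receptor signalling (0.92), and Midn (0.92), and in C2KO fibres by the same genes at 0.79, 0.57 and 0.71. Ppargc1a was followed by Ciao1 (0.88), the phosphodiesterase gene Pde7a (0.84) and the circadian repressor gene Bhlhe40 (0.84), and in C2KO fibres at 0.08, 0.34 and 0.78. Cd36 was followed by Aqp4, the water channel of fast fibres (0.83), the lysosomal protease gene Ctsb (0.81) and the glycolytic gene Pgk1 (0.73), and in C2KO fibres at 0.51, 0.14 and 0.33. Lpl was followed by Rnf128 (0.82), Tmem65 (0.80) and Prkg1 (0.80), and in C2KO fibres at 0.68, 0.37 and 0.08. Fabp3 was followed by Mif (0.74), Rnasek (0.71) and Yipf7 (0.68), and in C2KO fibres at 0.55, 0.06 and 0.32. Acsl1 was followed by Abcb4 (0.77), Arhgef6 (0.76) and Tex2 (0.74), and in C2KO fibres at 0.45, 0.54 and 0.34. Ucp3 was followed by Ctf1 (0.72), Mamstr (0.70) and Leng8 (0.62), and in C2KO fibres at 0.25, 0.42 and -0.10.

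Other genes of the pathway were read from 4 lists, and edgeR called none of their tested genes in either direction. DESeq2 called Gpihbp1 and Acot2 higher and none lower, and limma-voom on pools called none. Of 17 genes of lipid entry and storage, all were tested. The log2 fold change was positive for 11 and negative for 6 (49.9% of all genes were positive), and the median was 0.13. At an unadjusted p under 0.05, 4 (Gpihbp1, Fabp4, Acsl5 and Plin5) were on the higher side and none on the lower, against 6.20% and 4.13% of all genes. Gpihbp1, Fabp4 and Acsl5 were at most 0.227 normalised CPM in WT pools, and Gpihbp1 passed the filter on low counts only through C2KO pools. Gpihbp1, Fabp4 and Acsl5, and the DESeq2 call of Gpihbp1, therefore cannot be read as a shift of this list in fibres. Plin5 was detected in all pools, at 5.61 and 9.33 normalised CPM in C2KO pools 740 and 2445, against 3.82, 4.69 and 5.39 in WT pools 1, 2 and 3. Its log2 fold change was 0.69 (SE 0.26, edgeR adjusted p 0.46). The most abundant per kilobase were Pnpla2, the triglyceride lipase gene, at 147 and 176 normalised CPM in C2KO pools 740 and 2445, against 135, 151 and 147 in WT pools 1, 2 and 3, and Plin2, a lipid droplet coat gene, at 42.9 and 34.9 in C2KO pools, against 38.3, 41.99 and 38.9 in WT pools. The largest log2 fold changes belonged to genes that most fibres did not express. Gpihbp1, which anchors lipoprotein lipase on capillary endothelium, was at 0.793 and 0.105 normalised CPM in C2KO pools and at 0.016 in WT pool 1 with no count in WT pools 2 and 3, and Fabp4, an adipocyte and endothelial carrier, was at 5.88 and 0.115 in C2KO pools and at most 0.150 in WT pools. Fabp4 was at 0 in 16 of 20 C2KO and 25 of 27 WT fibres, and Gpihbp1 at 0 in 16 of 20 C2KO and 26 of 27 WT fibres. Acsl5 was at 0.751 and 0.251 in C2KO pools, against 0.039, 0.068 and 0.227 in WT pools.

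Of 18 further PPAR targets, 15 were tested, 13 with a positive and 2 with a negative log2 fold change (49.9% of all genes were positive), and the median was 0.17. At an unadjusted p under 0.05, 3 were on the higher side and none on the lower, against 6.20% and 4.13% of all genes. Acot2, a mitochondrial acyl-CoA thioesterase gene with a close paralogue in Acot1, was at 2.77 and 3.06 normalised CPM in C2KO pools 740 and 2445, against 1.301, 1.47 and 1.88 in WT pools 1, 2 and 3 (log2 fold change 0.92, SE 0.25, edgeR adjusted p 0.41). Acadl, the long-chain acyl-CoA dehydrogenase gene, was at 95.0 and 128 in C2KO pools, against 79.2, 82.2 and 91.4 in WT pools (0.40, SE 0.15, adjusted p 0.46). Cpt1a was at 0.939 and 2.35 in C2KO pools, against 1.04, 1.14 and 0.924 in WT pools, high in pool 2445 alone. The abundant oxidation genes Acadvl and Hadhb had log2 fold changes of 0.05 (SE 0.094) and 0.17 (SE 0.11). For Hadhb both C2KO pools lay above all WT pools, as for 13.1% of all genes.

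Of 20 receptors and coregulators, 18 were tested, 5 with a positive and 13 with a negative log2 fold change (median -0.05), where 49.9% of all genes were positive. At an unadjusted p under 0.05, 1 (Foxo1) was on the higher and 2 (Rxra and Med1) on the lower side, against 6.20% and 4.13% of all genes. The retinoid X receptor gene Rxra was at 120 and 133 normalised CPM in C2KO pools 740 and 2445, against 155, 156 and 149 in WT pools 1, 2 and 3 (log2 fold change -0.28, SE 0.088, edgeR adjusted p 0.42). The log2 fold changes of Med1 and Foxo1 were -0.34 (SE 0.091, edgeR adjusted p 0.41) and 0.48 (SE 0.16, edgeR adjusted p 0.44). Pparg, the adipocyte receptor, was not tested and reached at most 0.64 CPM in a C2KO fibre and 0.24 CPM in a WT fibre. Rxrg, the retinoid X receptor of muscle, was at 106 and 92.02 normalised CPM in C2KO pools, against 93.4, 120.1 and 102 in WT pools, and the coactivator gene Lpin1 at 367 and 365 in C2KO pools, against 372, 375 and 362 in WT pools. Esrrg (-0.90, SE 0.92) and Nr4a3 (0.56, SE 0.35) varied as much between WT pools as between genotypes.

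All 9 genes of the pyruvate dehydrogenase complex and its other kinases and phosphatases were tested. The log2 fold change was positive for 6 and negative for 3 (median 0.07), where 49.9% of all genes were positive. At an unadjusted p under 0.05, none was on the higher and 1 on the lower side, against 6.20% and 4.13% of all genes. Pdk2, the most abundant kinase, was at 658 and 761 normalised CPM in C2KO pools 740 and 2445, against 700.2, 815 and 792 in WT pools 1, 2 and 3. Per kilobase of exon its WT median was 338 CPM, against 28.7 CPM for Pdk4. Pdk3 was at 1.397 and 0.868 in C2KO pools, below the WT pools at 2.17, 1.73 and 2.42 (log2 fold change -0.89, SE 0.32, edgeR adjusted p 0.46). The subunit genes Pdha1 and Pdhb had log2 fold changes of 0.16 (SE 0.083) and 0.20 (SE 0.090), with both C2KO pools above all WT pools as for 13.1% of all genes. Pdp2 stayed under 1 CPM in all pools.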

How the data were processed

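RNA of 47 single EDL fibres had been sequenced, and the deposited values were raw counts of fragments per gene for each fibre, made by the authors with HISAT2 2.0.5 on mm10 and featureCounts 1.5.2 over exons by gene name. The gene rows agreed between all fibres. CPM are counts scaled to a fibre's total of 7648762 to 14606631 fragments.

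Fibres were summed into 2 C2KO and 3 WT pools, and C2KO was tested against WT with edgeR 4.0.16 (R 4.3.3, filterByExpr, TMM, quasi-likelihood F test, Benjamini-Hochberg adjustment over 12863 genes). Calls needed an adjusted p under 0.05 and a fold above 1.5. Normalised CPM are TMM-scaled pool values. The test was checked on simulated counts before use. DESeq2 1.42.0, limma-voom (limma 3.58.1), fibres as units and a run covariate were among the alternatives. Others left out 1 whole pool at a time, or the 9 fibres high in markers of other cells. Y-linked or Xist counts sorted the fibres into kinds, and the 3 alternatives that used them, and the test of the difference between kinds, were chosen after seeing the data. The members and the gene lists were chosen with earlier results of these data known. The named genes were all 10 members, the called or else the 3 most changed and the 2 most abundant tested genes of each list, and the 3 genes closest to each member in rank correlation over WT fibres. A few others, such as Pparg, were added after their values were seen. 1 gene that this rule names is not reported here.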

Additional observations from a re-analysis of the deposited data

Results flagged for a closer look

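Within single pools, 9 values of 50 pool and gene combinations stood apart from the other fibres of their pool by Dixon's ratio of gap to range. Chance alone gives about 1 in 20 for normally distributed values. The ratio was taken on untransformed CPM, so 9 of 50 does not measure an excess. The highest fibre of WT pool 2 for Fabp3 was at 82.1 CPM and the next at 56.1 CPM. This WT fibre alone lay above the C2KO median. For Acsl1 the highest fibre of C2KO pool 740 was at 188 CPM and the next at 159 CPM, and the lowest fibre of WT pool 2 was at 80.1 CPM with the next at 124 CPM. For Ppard the highest fibre was at 3.86 CPM in C2KO pool 2445, at 3.53 CPM in WT pool 1 and at 2.81 CPM in WT pool 2. The highest Pdk4 fibre of WT pool 1 was at 493.2 CPM and the next at 229 CPM. For Angptl4 the highest fibre was at 13.6 CPM in C2KO pool 2445 and at 28.9 CPM in WT pool 3.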

How the results depend on the processing

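No member was called lower under any of the 17 alternatives to edgeR on 5 pools, and members were called higher only by DESeq2 on pools (1, Fabp3), by edgeR on fibres (2, Fabp3 and Ucp3) and by limma-voom on fibres (4, with Ppard and Pdk4). Over all genes, 3 higher and 3 lower calls became 133 and 64 with DESeq2, 313 and 172 with edgeR on fibres, 246 and 228 with limma-voom on fibres, 24 and 11 with run as covariate, 6 and 5 without the filter on low counts, and, among the alternatives added after seeing the data, 12 and 9 with the kind of sex-linked counts as covariate, 265 and 21 for pool 740 and 2 and 1 for pool 2445 against WT fibres of their kind. Leaving out 1 pool gave 0 to 318 higher and 1 to 40 lower calls, the most without C2KO pool 2445. Directions turned for Ucp3 (-0.026 to 1.35 leaving out 1 pool, -0.82 with run as covariate, -0.11 in pool 740 against its kind), Ppargc1a (-0.026 to 0.079, -0.36 with run, -0.011 with kind, -0.27 in pool 2445 against its kind), Angptl4 (-1.46 to 0.14, 0.29 with limma-voom on fibres), Ppara (0.14 with run, 0.010 without fibres high in other cells' markers) and Cd36 (-0.11 in pool 2445 against its kind). With run as covariate, a fit that rests on 1 C2KO fibre beside 7 WT fibres, Cd36, Lpl and Pdk4 were at 1.35, 1.86 and 1.78. The cause was not tested, and none of these members was called in edgeR on pools. Ppara, Ppard and Angptl4 had the lowest counts of the 10. No paired analysis was possible because replicate numbers in the labels only name fibres and link no C2KO fibre to a WT fibre.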
